A study of Homo sapiens with 4 samples.

Results

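Chromosome 18 was examined in the ATAC-seq peak lists of HK1, an established human nasopharyngeal carcinoma cell line. In ATAC-seq, a transposase cuts and tags open DNA, so that a peak marks an accessible region. The members were all peaks on chromosome 18 (GRCh38), 3744 of the 250225 peaks in the 4 lists together. The chromosome itself was chosen by measured values, namely by its ratio of summit pileups between FLI1-KO and WT cells, which was the lowest of 23 chromosomes. The differences between the genotypes below are therefore described and not tested, and nothing is inferred from them being low.

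The 4 groups were wild-type cells left untreated (WT), wild-type cells given interferon-γ (WT-IFN-γ), and cells in which the ETS transcription factor gene FLI1 had been targeted with a guide RNA, untreated (sgFLI1) or given IFN-γ (sgFLI1-IFN-γ). IFN-γ was given for a day per the study's methods. Each group had 1 peak list. Values of the 4 libraries are given in one order throughout, first WT, then WT-IFN-γ, then sgFLI1, then sgFLI1-IFN-γ. Which guide was used for these libraries, and whether the sgFLI1 cells are 1 clone or a pool, is not given in the sources used here, and a peak list does not check the knockout. With 1 library per group there was no replicate spread to hold a difference against, and the intervals given below are 95% intervals of counting error or of a median over peaks. Fewer cells with an open region and less opening per cell cannot be told apart in such bulk libraries, and the number of copies of the chromosome was not measured.

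Chromosome 18 is a small, gene-poor chromosome with a short arm and a much longer long arm. Its long arm carries SMAD2, SMAD4 and SMAD7, which transmit or restrain TGF-β signals, the apoptosis inhibitor gene BCL2, the desmosomal cadherin genes that hold squamous cells together, and a cluster of serpin genes that encode protease inhibitors. Gains and losses of whole chromosomes or arms are common in carcinoma cell lines. Since a region present in fewer copies gives fewer tags at each of its peaks and between them, ATAC-seq signal varies with copy number as well as with accessibility.

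The windows below, 201 bases around a summit on the plus strand of the GRCh38 reference (hg38), show what such regions look like. Each is the first of its set, by −log10 q (the significance the peak caller gave it) or, in the last pair, by the mean of the log2 ratios described below. Capitals mark matches to the AP1 motif TGANTCA or the ETS motif CCGGAAGT, the elements of factors that open enhancers and of the family to which FLI1 belongs. Both were searched on both strands, together with the IRF motif of factors activated by interferon and the CTCF motif, and no match in these windows overlapped another. A match is a description of letters and not a binding site.

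Both WT lists and neither sgFLI1 list, chr18:38940927-38941127: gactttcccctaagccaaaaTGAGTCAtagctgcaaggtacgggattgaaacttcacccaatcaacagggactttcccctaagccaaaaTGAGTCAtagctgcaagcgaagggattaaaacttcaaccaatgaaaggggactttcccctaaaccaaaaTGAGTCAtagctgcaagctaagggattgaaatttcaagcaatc

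Gained with IFN-γ in FLI1-KO cells, chr18:74552014-74552214: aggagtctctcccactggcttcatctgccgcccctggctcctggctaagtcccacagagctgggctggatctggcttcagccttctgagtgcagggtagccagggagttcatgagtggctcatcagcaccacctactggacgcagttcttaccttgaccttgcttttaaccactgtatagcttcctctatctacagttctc

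Lowest mean ratio of FLI1-KO to WT cells, chr18:5900400-5900600: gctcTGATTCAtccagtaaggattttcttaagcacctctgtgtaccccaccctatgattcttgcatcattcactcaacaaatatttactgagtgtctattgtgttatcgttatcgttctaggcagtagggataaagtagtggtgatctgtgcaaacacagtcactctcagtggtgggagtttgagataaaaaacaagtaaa

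Highest mean ratio of FLI1-KO to WT cells, chr18:10927363-10927563: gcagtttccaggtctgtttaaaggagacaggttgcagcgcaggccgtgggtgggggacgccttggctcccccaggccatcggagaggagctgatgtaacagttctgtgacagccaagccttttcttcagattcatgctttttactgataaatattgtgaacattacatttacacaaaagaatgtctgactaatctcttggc

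The first window held 3 copies of a short repeat, each with an AP1 match. The second, gained with IFN-γ in FLI1-KO cells, had no match to these motifs. Among the peaks matched in all 4 lists, the one with the highest summed pileup lay at the promoter of ESCO1, a cohesin acetyltransferase gene, and 1 ETS match there is shown as a 30-base site.

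ESCO1 promoter, chr18:21600731-21600760: gcaaacaccaaACTTCCGGcgacgacggcg

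Before the genotypes were compared, the libraries were set side by side. The number of tags over a summit (the summit pileup) was recovered for every peak as a whole number, and the libraries held 8.04, 8.84, 6.93 and 6.86 tags for each kb of genome, their tag density. Both WT libraries were thus deeper than both FLI1-KO libraries, and the shallowest peak listed on chromosome 18 had 8 tags in the former and 7 in the latter. Promoter peaks marked 5, 5, 4 and 3 of 8 squamous epithelial marker genes, with KRT14, TP63 and DSG3 lacking one at the canonical start site in every list. None of 3 T cell genes had a promoter peak, and of 2 leukocyte genes only PTPRC did, with 12 tags in WT. Of 3 fibroblast genes, COL1A1 and COL1A2 had one, with up to 172 tags at COL1A1, and of 2 endothelial genes CDH5 had one in 1 library of each genotype.

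Chromosome 18 held fewer peaks in FLI1-KO than in WT cells, with and without IFN-γ. The WT list had 997 chromosome 18 peaks (936 to 1061, exact Poisson interval) and the WT-IFN-γ list 1127 (1062 to 1195). The sgFLI1 list had 830 (774 to 888) and the sgFLI1-IFN-γ list 790 (736 to 847). The untreated FLI1-KO count differed from WT by −16.8%, while the count over all chromosomes was 5.99% higher. Under IFN-γ the difference was −29.9%, against −11.2% over all chromosomes. The share of a list that lay on chromosome 18 took account of the size of the lists. It was 1.67% in WT (1.57 to 1.78%, Wilson) and 1.67% with IFN-γ (1.58 to 1.77%), against 1.31% (1.23 to 1.40%) and 1.32% (1.23 to 1.41%) in the FLI1-KO lists, so that the share was the same with and without IFN-γ within counting error and differed by genotype. The ratio of the FLI1-KO to the WT share was 0.785 untreated and 0.789 under IFN-γ, in both cases rank 1 from the lowest of 23 chromosomes.

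The counts were lower along the whole chromosome. Peaks were counted in 8 bins of 10 Mb from the end of the short arm and in a last bin of 0.37 Mb, and in each of them both FLI1-KO lists had fewer peaks than the WT list of the same treatment. The first bin had 150, 175, 122 and 123 peaks. In the fourth bin the counts were 104, 109, 74 and 66. The fifth bin differed least in percent, with 159, 182, 151 and 146 peaks (−5.03% and −19.8%). No list had a peak in the stretch from 14977211 to 21110734, 6.13 Mb long, which holds the centromere and was used to part the arms. On the short arm 227, 261, 194 and 191 peaks were listed, and on the long arm 770, 866, 636 and 599.

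**Figure D1:**
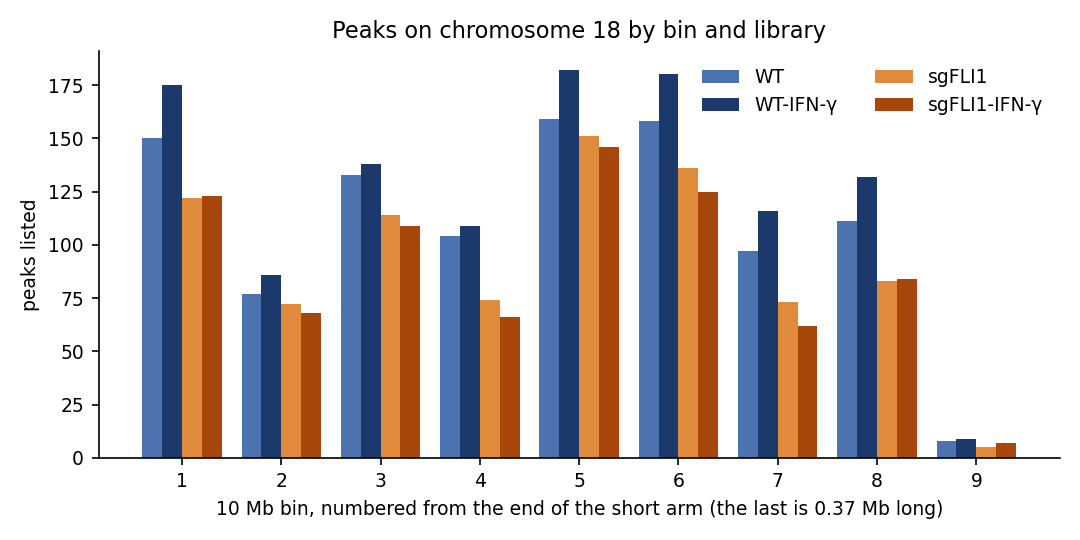
Number of peaks listed on chromosome 18 in each 10 Mb bin, numbered from the end of the short arm, with 1 bar for each of the 4 libraries. In each bin the bars of both FLI1-KO libraries are lower than those of the WT library with the same treatment, for example 122 and 123 against 150 and 175 in bin 1.

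Next, peaks were asked for a counterpart in the other genotype, defined by an overlap of at least 1 base. Of the WT peaks on chromosome 18, 314 of 997 (31.5%, 28.7 to 34.4%) had none in sgFLI1, where the share over all chromosomes was 21.4%. In the opposite direction 134 of 830 sgFLI1 peaks (16.1%, 13.8 to 18.8%) had none in WT, against 25.3% over all chromosomes. Chromosome 18 thus lay above the whole list in peaks found in WT alone and below it in peaks found in sgFLI1 alone. Under IFN-γ, 452 of 1127 WT-IFN-γ peaks (40.1%, 37.3 to 43.0%) had no sgFLI1-IFN-γ counterpart, against 29.0% in all. Of the sgFLI1-IFN-γ peaks 109 of 790 (13.8%, 11.6 to 16.4%) had no WT-IFN-γ counterpart, against 19.8% in all. The share missing from the FLI1-KO list was the highest of the 23 chromosomes (rank 1) in both treatments, and the share missing from the WT list ranked 2 and 3 from the lowest.

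Peaks without a counterpart were the low ones. Their median pileup in WT was 16 tags, against 34 tags for chromosome 18 peaks with a counterpart. Among WT peaks of up to 15 tags, 152 of 219 (69.4%) had no sgFLI1 counterpart, among those of 16 to 30 tags 141 of 372 (37.9%), among those of 31 to 60 tags 21 of 219 (9.59%), and among those over 60 tags 0 of 187, which allows a share of up to 1.60% (3 counts of the total). On the other chromosomes these shares were 60.7%, 25.1%, 6.69% and 1.02%. In the WT list the gap between chromosome 18 and the rest was therefore widest in peaks of 16 to 30 tags. The lowest pileup listed on chromosome 18 was 8 tags in WT and 7 in sgFLI1. In sgFLI1 peaks of up to 15 tags the order was the other way, with 86 of 247 (34.8%) lacking a WT counterpart on chromosome 18 and 62.7% on the other chromosomes.

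**Figure D2:**
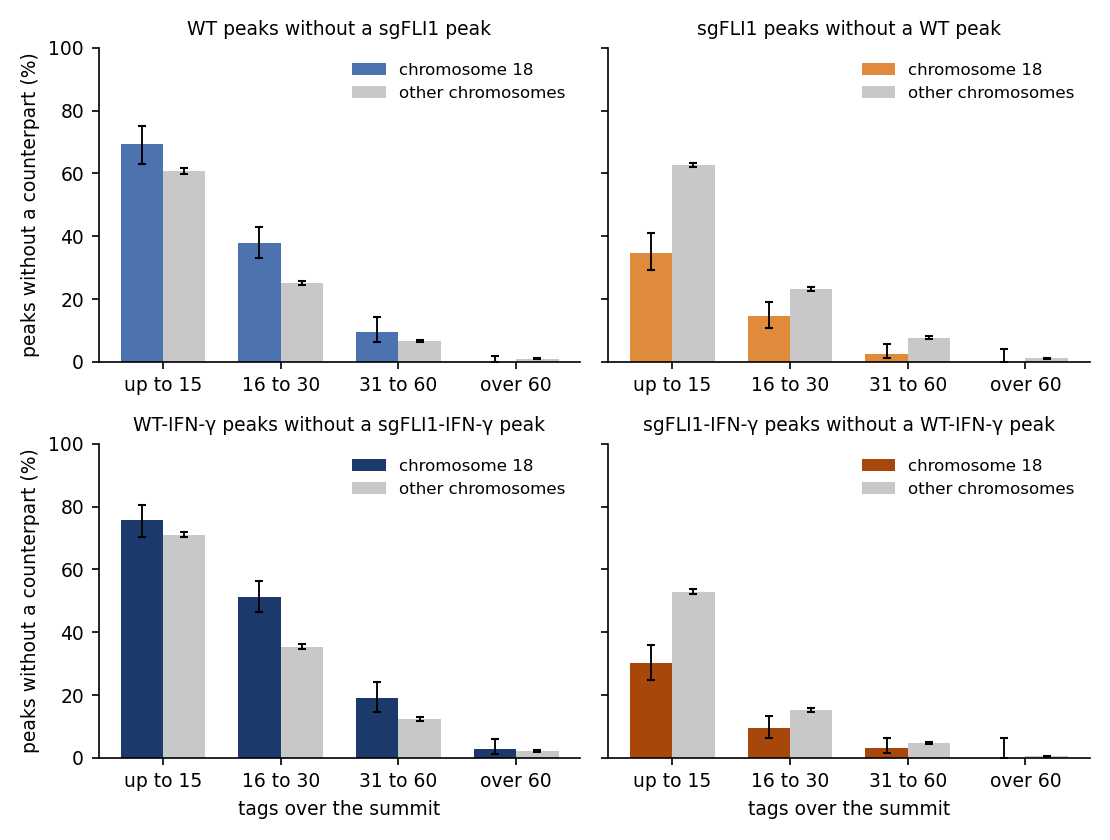
Share of peaks without a counterpart in the other genotype, in percent, by the number of tags over the summit, for chromosome 18 (coloured) and all other chromosomes (grey). Bars are shares and error bars their 95% Wilson intervals. On chromosome 18, WT peaks of 16 to 30 tags lacked a sgFLI1 counterpart more often (37.9%) than on the other chromosomes (25.1%), and sgFLI1 peaks of up to 15 tags lacked a WT counterpart less often (34.8% against 62.7%).

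The position of a peak made a similar split. At promoters, that is up to 3 kb from the start site (TSS) of a gene, 17 of 191 WT peaks on chromosome 18 (8.90%) had no sgFLI1 counterpart, against 5.93% on the other chromosomes. Over 3 kb from a TSS it was 297 of 806 (36.8%), against 25.4%. Promoter peaks were also higher, so pileup and position cannot be told apart in these shares.

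Between untreated and IFN-γ lists of one genotype, chromosome 18 differed about as much as the whole lists. Among the 1127 WT-IFN-γ peaks, 278 (24.7%) had no counterpart before treatment, against 25.2% over all chromosomes, and 154 of the 997 WT peaks (15.4%) had no WT-IFN-γ counterpart, against 15.9%. In FLI1-KO cells 132 of the 790 sgFLI1-IFN-γ peaks (16.7%) were gained and 167 of the 830 sgFLI1 peaks (20.1%) lost, against 18% and 22.2%. These shares are close to the background, so they are not a result about chromosome 18.

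When the peaks of the 4 lists were merged, chromosome 18 had 1392 regions, 567 of them in all lists (40.7%, against 43.9% of the regions on other chromosomes). Regions in both WT lists and neither sgFLI1 list numbered 147 (10.6%, 9.05 to 12.3%), against 4.1% elsewhere. The mirror pattern, in both sgFLI1 lists and neither WT list, numbered 30 (2.16%, 1.51 to 3.06%), against 3.59%. WT-IFN-γ alone had 214 regions (15.4% against 11.6%), sgFLI1 alone 54 (3.88% against 8.73%) and sgFLI1-IFN-γ alone 40 (2.87% against 6.18%). Of these patterns, that of both WT lists and neither sgFLI1 list stood farthest from the other chromosomes. The chromosome was chosen for low ratios between the genotypes, so nothing is inferred from this order.

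The regions that led these sets were distal. Among those in both WT lists alone, the first lay in an intergenic stretch at chr18:38940840-38941674, with 30 tags in WT (20.2 to 42.8) and 43 in WT-IFN-γ (31.1 to 57.9), and its AP1 repeats are printed above. A region in intron 2 of PTPRM, a receptor tyrosine phosphatase gene, at chr18:7871136-7872788 had 34 and 58 tags. Another in intron 2 of SETBP1, which encodes a SET-binding nuclear protein, at chr18:44789423-44790396 had 30 and 36 tags. The other 2 of the first 5 were at chr18:31241928-31242384, in an intron of a long non-coding RNA gene at −76014 bases from the TSS of the desmoglein gene DSG1, with 33 and 30 tags, and at chr18:76709589-76710423, upstream of ZNF236, with 34 and 41 tags. All 5 lay far from a start site, and their pileups fell short of 60 tags in both libraries.

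Regions in both sgFLI1 lists alone were fewer. A region at chr18:3639326-3639807, in intron 7 of the synaptic scaffold gene DLGAP1, had 22 and 26 tags, and one at chr18:48028628-48029042, in the 3′ UTR exon of ZBTB7C, 32 and 34. Others of the set lay near METTL4 (37 and 24 tags) and SKA1 (23 and 20 tags).

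The regions that led the peaks gained with IFN-γ had more tags in WT than in FLI1-KO cells. Over all gained chromosome 18 peaks, the median pileup was 15 tags in WT-IFN-γ and 11 in sgFLI1-IFN-γ, the shallower library. The part of depth in this was not tested. In WT cells, a region at −10740 bases from the TSS of SMAD7, the gene of the inhibitory SMAD (chr18:48961287-48961927), had 62 tags (47.5 to 79.5) and was listed in WT-IFN-γ alone. So was one upstream of PTPN2, a phosphatase that restrains JAK and STAT signalling, at chr18:12903979-12904433, with 49 tags. Gained regions that were in both sgFLI1 lists as well lay near CTAGE1 (48 tags, and 11 and 11 in the sgFLI1 lists) and in intron 27 of ATP8B1 (38, 15 and 8 tags). In FLI1-KO cells the first 5 had from 18 to 29 tags, led by chr18:74551537-74552374 in intron 1 of CNDP1 with 29 tags in sgFLI1-IFN-γ and 18 in WT, and each of the 5 was also listed in at least 1 WT library. The others lay in intron 1 of PTPRM (26 tags) and nearest to the start sites of GATA6 (22 tags), PARD6G (21 tags) and NDUFV2 (18 tags).

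The motifs gave a further view of these sets. On chromosome 18 the AP1 motif lay within 100 bases of the summit in 26.2% of WT peaks (23.5 to 29.0%), against 21.8% on the other chromosomes, and in 30.8% of sgFLI1 peaks (27.8 to 34.1%), against 24.2%. The IRF motif lay in 15.5% of the peaks gained with IFN-γ in WT cells (43 of 278, 11.7 to 20.2%), against 12.6% on the other chromosomes and 3.42% of the chromosome 18 peaks that WT already had. In FLI1-KO cells it lay in 4 of the 132 gained peaks (3.03%, 1.18 to 7.53%), against 3.44% elsewhere. The chromosome therefore followed the lists as a whole in where the interferon motif appeared. The ETS motif lay in 12 of 997 WT peaks (1.20%, against 1.42%), in 12 of the 683 with a sgFLI1 counterpart and in 0 of the 314 without one, which by the same limit allows a share of up to 0.955%, against 0.24% on the other chromosomes. The CTCF motif, that of a factor at loop anchors and insulators, lay in 41 of the 314 WT peaks without a sgFLI1 counterpart (13.1%, 9.77 to 17.2%), against 7.53% elsewhere, and in 56 of the 683 with one (8.2%), against 8.73%. Under IFN-γ it lay in 39 of the 452 WT-IFN-γ peaks without a sgFLI1-IFN-γ counterpart (8.63%, 6.38 to 11.6%), against 4.48% elsewhere. Its share was also above the other chromosomes in sgFLI1 peaks without a WT counterpart (10 of 134, 7.46% against 3.02%). The same held for sgFLI1 peaks lost with IFN-γ (21 of 167, 12.6% against 4.57%) and sgFLI1-IFN-γ peaks gained (17 of 132, 12.9% against 6.29%). In sgFLI1-IFN-γ peaks without a WT-IFN-γ counterpart it was not above them (4 of 109, 3.67% against 4.03%). A higher CTCF share was thus not particular to WT peaks missing from sgFLI1.

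Pileups were then compared in peaks that overlapped one to one and had over 60 tags in both libraries together. Each pileup was divided by its library's tag density, and the ratios were centred on the median over all chromosomes, so that a log2 ratio of 0 is the level of the genome. Chromosome 18 had 325 of 27652 such peaks untreated and 345 of 28160 under IFN-γ. Its median log2 ratio was −0.35 for sgFLI1 over WT (−0.41 to −0.31, exact binomial interval, quartiles −0.56 and −0.12), or 0.782 on the linear scale, and −0.40 for sgFLI1-IFN-γ over WT-IFN-γ (−0.43 to −0.35, quartiles −0.61 and −0.19), or 0.760. The ratio was below 0 in 268 of the 325 and in 304 of the 345 peaks. These are the values for which the chromosome was chosen, and both pairs are free of shared libraries.

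Chromosome 18 was followed by chromosome 16 (−0.30 and −0.27), with 19 (−0.23 and −0.18) and 9 (−0.23 and −0.22) next, and chromosome 13 stood at the other end (0.21 and 0.14). With IFN-γ against no treatment, chromosome 18 was near 0 in both genotypes, at 0.05 in WT cells (0.00 to 0.08, 411 peaks) and −0.01 in FLI1-KO cells (−0.05 to 0.03, 262 peaks). The value in WT cells was the highest of the 23 chromosomes, and the SD over chromosomes was 0.02 in each of these pairs. Division by tag density alone had left the median of all peaks at −0.16 in the FLI1-KO pair and at 0.05, −0.06 and −0.06 in the others, and the ratios are relative to those medians.

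**Figure D3:**
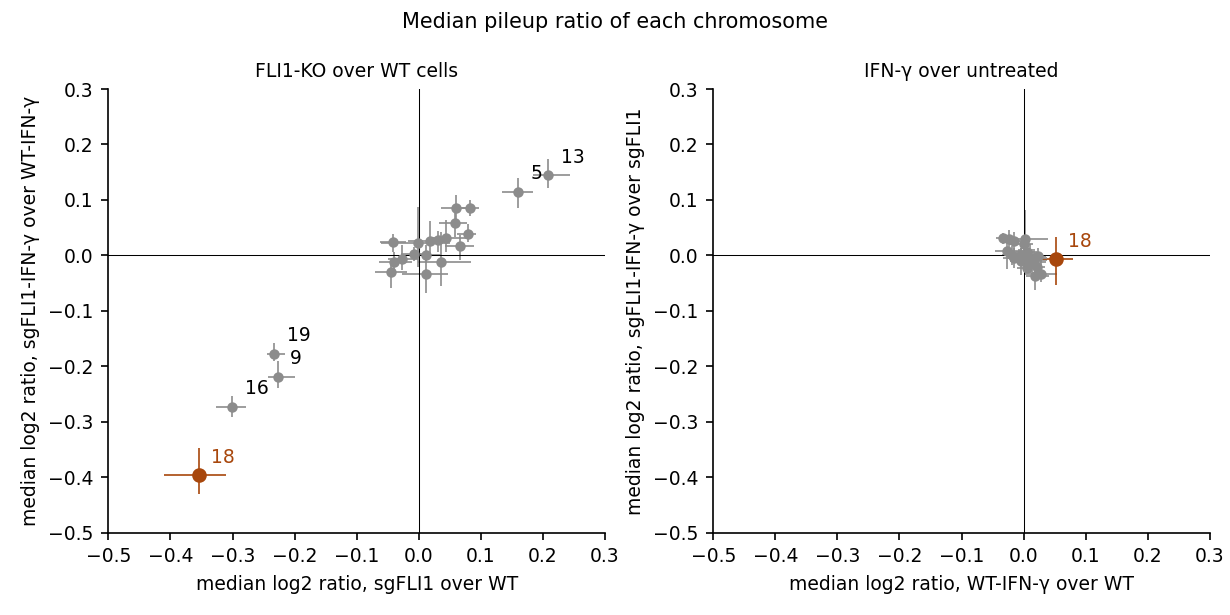
Median log2 ratio of summit pileups of each chromosome, untreated against IFN-γ for FLI1-KO over WT cells (left) and WT against FLI1-KO cells for IFN-γ over untreated (right). Points are medians and bars their 95% intervals over peaks. Chromosome 18 lies at −0.35 and −0.40 on the left, farther from 0 than any other chromosome, and at 0.05 and −0.01 on the right.

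Peaks that were lower by at least 1.5-fold numbered 76 of the 325 on chromosome 18 untreated (23.4%), where the share over all chromosomes was 7.31%, and those higher by as much 8 (2.46%), against 8.63%. Under IFN-γ 94 of 345 were lower (27.2%), against 8.24%, and 7 higher (2.03%), against 7.49%. Most of the chromosome 18 peaks below 0 therefore differed by less than 1.5-fold, and few differed by as much in the opposite direction.

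The lower ratios extended evenly along the chromosome. In bins of 10 Mb with at least 20 peaks, the median was below 0 in 8 of 8 bins in both pairs. It ranged from −0.46 in the eighth bin to −0.31 in the fifth untreated, and from −0.48 in the fourth to −0.31 in the first under IFN-γ, with an SD over bins of 0.05 and 0.06. Of the bins on other chromosomes, 100 of 278 (36.0%) and 111 of 279 (39.8%) were below 0, and 12 and 11 were at or below the highest chromosome 18 bin. Among the other chromosomes with a low median, 16 and 19 were as even, with 9 of 9 and 6 of 6 bins below 0 in both pairs and SDs over bins of 0.06 and 0.05 untreated and of 0.05 and 0.06 under IFN-γ. The bins of chromosome 9 ran from −0.46 to 0.86 untreated. On the short arm the chromosome 18 median was −0.41 (86 peaks) and −0.31 under IFN-γ, and on the long arm −0.35 (239 peaks) and −0.42. In bins of 5 Mb the lowest untreated was the first, at −0.55 (23 of 23 peaks below 0), and the next, at −0.28, was the highest. Under IFN-γ the first was instead the highest, at −0.29, and the lowest, at −0.47, was the bin from 75 to 80 Mb.

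**Figure D4:**
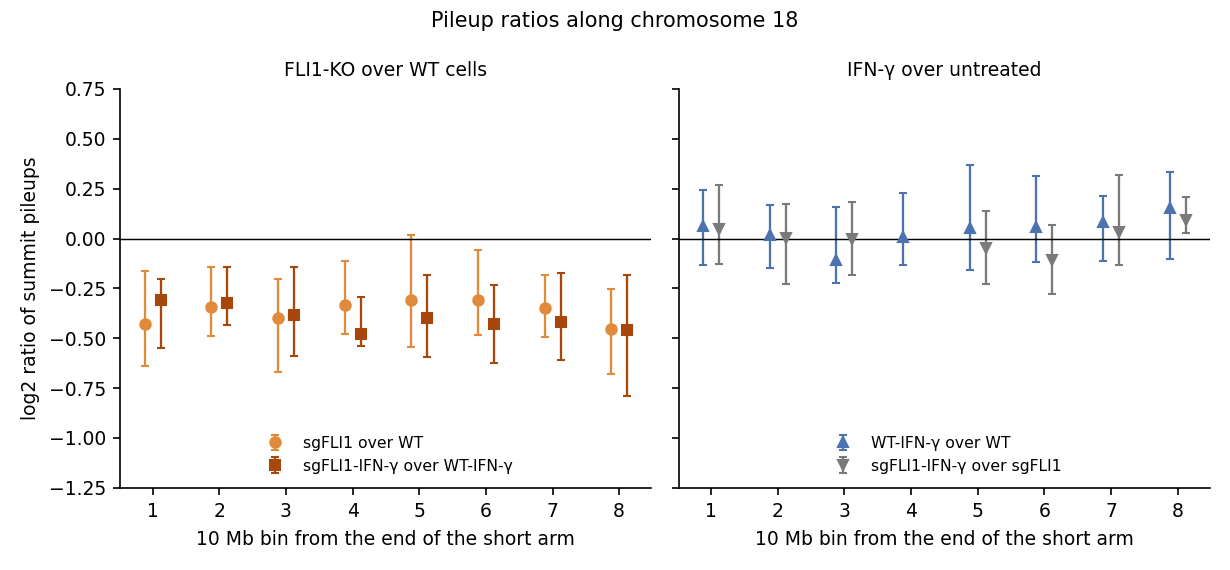
Log2 ratio of summit pileups in 10 Mb bins of chromosome 18 with at least 20 peaks, numbered from the end of the short arm, for FLI1-KO over WT cells (left) and IFN-γ over untreated (right). Points are medians over peaks and bars run from the lower to the upper quartile. On the left all 8 medians lie between −0.48 and −0.31 in both pairs, and on the right they lie between −0.11 and 0.15.

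The ratio was lower than on the other chromosomes in each class of peak examined. In classes of GC content around the summit, 5 in number, the chromosome 18 median minus that of the other chromosomes ran from −0.42 to −0.31 untreated and from −0.46 to −0.33 under IFN-γ. Within 3 kb of a TSS it was −0.35 untreated (142 peaks) and −0.34 under IFN-γ (140 peaks), and farther out −0.36 (183 peaks) and −0.46 (205 peaks), as medians of chromosome 18. The background that the peak caller had estimated around the same peaks, where it was above the library's own, was lower too, by a median of −0.40 untreated (319 peaks) and −0.41 under IFN-γ (331 peaks), against 0.00 on the other chromosomes. Where no control library is used, such an estimate includes tags of the peaks themselves. Chromosome 18 peaks had a lower GC content than the others in each library (medians of 48.8, 47.8, 50.7 and 50.2% against 51.2, 50.7, 52.2 and 52.2%), and the FLI1-KO libraries were shallower. The part of GC content and depth in the lower ratios was not tested beyond these classes and the scaling, and that of copy number was not tested.

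In 289 chromosome 18 peaks that were matched one to one across the 4 lists and passed the minimum of tags in both pairs, the ratio was below 0 in both pairs in 229 (79.2%, against 31.1% on the other chromosomes) and above 0 in both in 17 (5.88%). Over these peaks the ratios of the pairs had a Pearson's r of 0.41, and the SD of their difference was 0.42, larger than the chromosome's median ratio in size. The values of single peaks were therefore less precise than the median over the chromosome. On the other chromosomes r was higher, at 0.58, and the SD of the difference was 0.40.

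The peaks at the ends of that range were these. In an intron of a long non-coding RNA gene, at −4978 bases from the TSS of TMEM200C (chr18:5899754-5900921) there were 49, 60, 19 and 14 tags, for log2 ratios of −1.20 and −1.68. In intron 4 of DLGAP1 (chr18:3816613-3817533) the pileups were 64, 70, 22 and 20 tags, for ratios of −1.37 and −1.39. In intron 1 of DSEL-AS1, an antisense RNA gene (chr18:67628146-67628957), they were 68, 80, 28 and 24 tags (−1.11 and −1.32). Both WT libraries stood above both FLI1-KO libraries in each. A peak at the start of CYB5A, which encodes cytochrome b5 (chr18:74291775-74292340), had 58, 47, 16 and 22 tags, and one at −22235 bases from the TSS of SERPINB5, the gene of the protease inhibitor maspin (chr18:63454056-63455194), had 70, 89, 32 and 29. Its ratios were −0.96 and −1.20.

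At the opposite end, intron 3 of the mechanosensitive channel gene PIEZO2 (chr18:10925838-10927782) had 27, 23, 48 and 43 tags, for ratios of 1.00 and 1.32. This was the only one of the 5 highest peaks with a mean ratio above 1. The next, at −6171 bases from the TSS of the potassium channel gene KCNG2, had 21, 91, 52 and 57 tags, so that its ratio was 1.48 untreated and −0.25 under IFN-γ. An intergenic peak at chr18:68177985-68178615 had 35, 23, 32 and 39 tags (0.04 and 1.18), and one at −2515 bases from the TSS of SOCS6 had 27, 33, 35 and 39 (0.54 and 0.66). A peak in intron 2 of CDH2, the N-cadherin gene, had 25, 33, 38 and 31 tags.

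Promoters were followed by gene. Of 266 protein-coding genes on chromosome 18, 186 had a peak within 3 kb of the canonical TSS in WT, and 184, 179 and 177 in the other libraries. These are 69.9, 69.2, 67.3 and 66.5%, against 66.5, 67.7, 67.0 and 66.0% of the genes on other chromosomes. The set of promoters with a peak thus differed little between the lists, and 174 had one in all 4 lists while 77 had none in any. Among those that could be compared, the median log2 ratio was −0.36 untreated, with 146 of 156 below 0, and −0.34 under IFN-γ, with 139 of 155 below 0. These are counts of genes, and neighbours that share a peak, such as METTL4 and NDC80, are each counted.

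Lists of chromosome 18 genes by role held 70 genes, of which 46 had a promoter peak in all 4 lists and 21 in none. Of the 46, 44 had a ratio below 0 untreated (median −0.41) and 42 under IFN-γ (median −0.33). A housekeeping list of 10 genes, which encode enzymes of general metabolism, a ribosomal protein and the like, had medians of −0.24 and −0.44, with 10 of 10 ratios below 0 in both pairs.

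**Figure D5:**
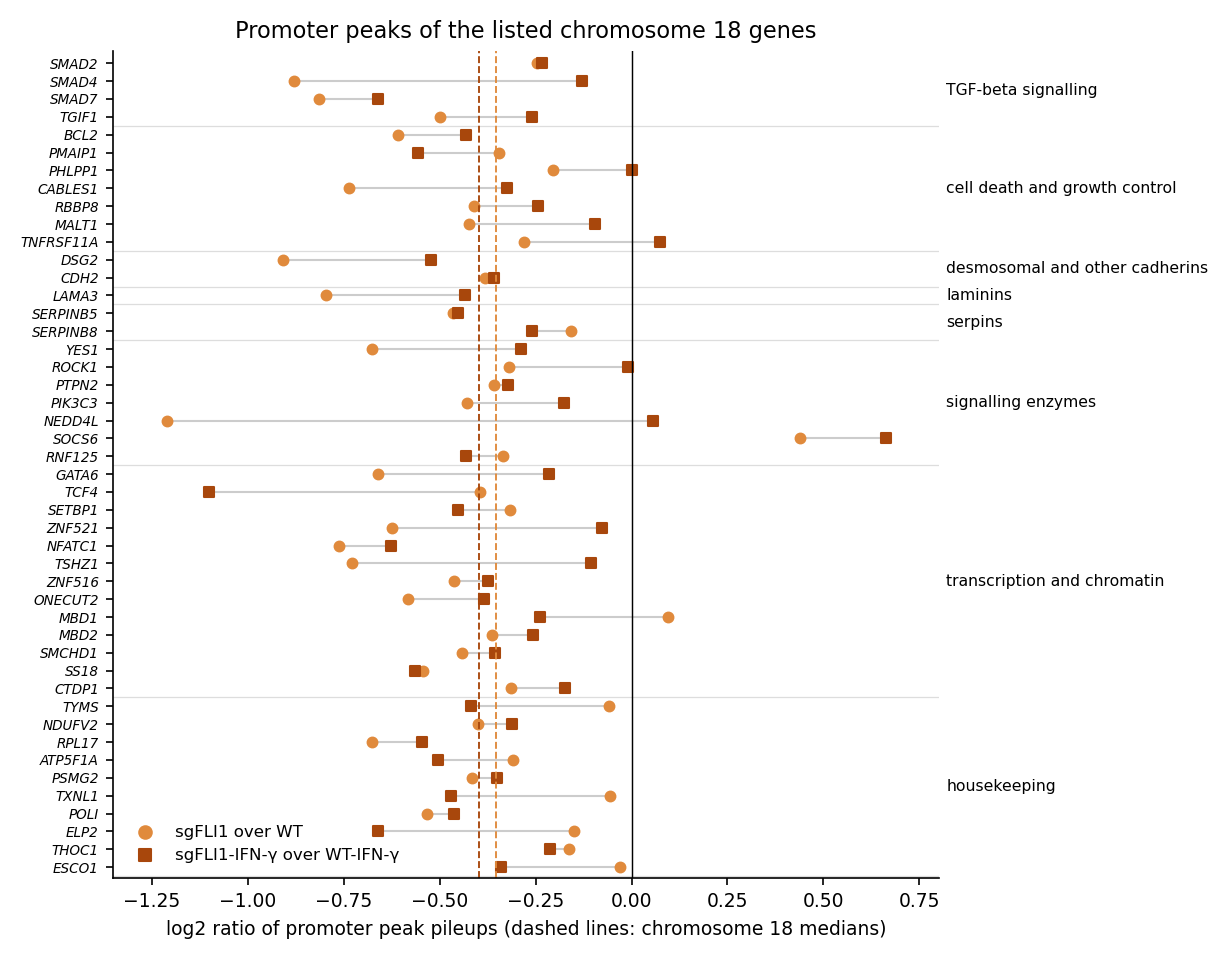
Log2 ratio of the promoter peak pileup for FLI1-KO over WT cells, untreated (circles) and under IFN-γ (squares), in the 46 listed chromosome 18 genes with a promoter peak in all 4 lists, grouped by role. Dashed lines mark the chromosome 18 medians of −0.35 and −0.40, and the solid line 0. Of the genes shown, 44 and 42 lie below 0. No minimum of tags was applied.

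In TGF-β signalling, 4 of 5 listed genes had a promoter peak in all lists and all 4 had ratios below 0, with medians of −0.66 and −0.25. SMAD7, which encodes the inhibitory SMAD, had 172 tags in WT (147 to 200), 163 with IFN-γ, and 87 (69.7 to 107) and 77 in the FLI1-KO libraries, and both WT values lay far above both FLI1-KO values (ratios −0.82 and −0.66). SMAD4, the common mediator SMAD, had 91, 85, 44 and 58 tags (−0.88 and −0.13). SMAD2, a receptor-activated SMAD, had 108, 118, 81 and 75 tags (−0.25 and −0.23), and TGIF1, a corepressor of SMAD targets, 89, 85, 56 and 53 (−0.50 and −0.26). Before any scaling the pileups of each gene were lower in both FLI1-KO libraries, which were also the shallower ones. SKOR2, another corepressor, had no promoter peak.

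Among genes of cell death and growth control, 7 of 9 had a promoter peak in all lists, with 7 of 7 ratios below 0 untreated and 5 of 7 under IFN-γ. BCL2 had 36, 47, 21 and 26 tags (−0.61 and −0.43), and PMAIP1, which encodes the proapoptotic NOXA, 100, 128, 70 and 65 (−0.35 and −0.56). The 2 genes not below 0 under IFN-γ were the phosphatase gene PHLPP1 (0.00) and TNFRSF11A, the gene of the receptor RANK (0.07). DCC, a netrin receptor gene on the long arm, and EPB41L3 had no promoter peak in any list.

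Of 11 cadherin genes, 7 had no promoter peak in any list, among them DSG1 and DSC1 of differentiated squamous epithelium and DSG3, the desmoglein of its lower layers. DSG2, the desmoglein of simple and proliferating epithelia, had 59, 50, 28 and 26 tags (−0.91 and −0.52), and CDH2 60, 55, 41 and 32 (−0.38 and −0.36). DSC2 (19 and 22 tags) and DSC3 (21 and 18 tags) had a promoter peak in both WT lists and in neither sgFLI1 list. Peaks that low were often missing from the FLI1-KO list, as the shares by pileup show. LAMA3, which encodes a chain of laminin-332 in the epithelial basement membrane, had 41, 38, 21 and 21 tags (−0.80 and −0.43), and LAMA1 none. In the serpin cluster SERPINB5 had 76, 88, 49 and 48 tags (−0.46 and −0.45) and SERPINB8 109, 101, 87 and 63 (−0.16 and −0.26), while SERPINB3 had a peak of 15 tags in sgFLI1 alone and the other 7 of 10 none.

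Of 7 signalling genes with a promoter peak in all lists, 6 had a ratio below 0 untreated and 5 under IFN-γ. NEDD4L, a ubiquitin ligase gene, had 91, 85, 35 and 66 tags, so that its ratio was −1.21 untreated and 0.06 under IFN-γ. SOCS6, a member of the SOCS family of feedback inhibitors, was the only listed gene above 0 in both pairs, with 29, 33, 35 and 39 tags (0.44 and 0.66). In WT the highest summit lay near the TSS and in the other lists over 2 kb upstream, so the untreated ratio sets different summits side by side. The upstream peak itself, given above, was also above 0 in both pairs. PTPN2 had 111, 144, 77 and 86 tags (−0.36 and −0.32), with the higher value under IFN-γ in both genotypes. The kinase gene YES1 had 79, 72, 44 and 44 tags (−0.68 and −0.29).

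In transcription and chromatin, 13 of 15 genes had a promoter peak in all lists, 12 of them below 0 untreated and 13 under IFN-γ. TCF4, a basic helix-loop-helix factor gene, had 31, 46, 21 and 16 tags (−0.39 and −1.10). GATA6, an endoderm factor gene, had 64, 70, 36 and 45 (−0.66 and −0.22), and NFATC1, the gene of a calcium-regulated factor, 61, 62, 32 and 30 (−0.76 and −0.63). The exception was MBD1, which encodes a methyl-CpG binding protein, with 80, 87, 76 and 55 tags (0.09 and −0.24). Of the housekeeping genes, ESCO1 had the highest pileups, 188, 217, 164 and 128 tags (−0.03 and −0.34), and RPL17, a ribosomal protein gene, had 97, 90, 54 and 46 (−0.68 and −0.55). The next of the peaks in all 4 lists by summed pileup lay at the start sites of VAPA (176, 208, 151 and 125 tags), VPS4B (170, 177, 109 and 105 tags) and KDSR (158, 154, 110 and 89 tags), followed by that of SMAD7.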

How the data were processed

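HK1 cells of 4 groups were profiled by ATAC-seq, with 1 peak list per group. Per the study's methods and the submitters' processing notes, the authors used Trimmomatic 0.3 for trimming and Bowtie2 2.3.4.1 for alignment to GRCh38, dropped alignments with a mapping quality under 30 and duplicates (Picard), and called peaks with MACS2 2.1.2 at a q-value cutoff of 0.05. An IDR filter between replicates is also named; whether a list is 1 replicate, pooled or filtered is not given in the sources used here, nor is a shift of tag ends.

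Each deposited list gives a score, a fold enrichment over local background (a ratio), and −log10 p and −log10 q values for every peak, all made by the authors' peak caller. No other per-sample columns were used. From the fold and −log10 p, the whole-number pileup and its background were recovered for 100% of peaks (tolerance 0.001). The lowest background recovered in a library, divided by the width of its shortest listed peak, gave tag density. These widths (274, 249, 259 and 255 bases) were taken as the length to which the peak caller extended tags, which was not checked. Reads without molecular identifiers are not independent molecules, and the intervals hold counting error alone.

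Peaks were matched by an overlap of 1 base or more. Ratios used peaks matched one to one with over 60 tags in both together, scaled to tag density and centred on the median of all chromosomes. Ratios of the listed genes instead set the promoter peaks of 2 libraries side by side, with the same scaling and centring but no minimum of tags. Genes and TSSs came from GENCODE 44, 1 canonical transcript per gene, and a promoter peak is the highest with its summit within 3 kb. Intervals are Wilson's for shares (for a share of 0, the limit is 3 counts), exact Poisson for counts, and exact binomial for medians. No test between groups was made, since each had 1 library and the chromosome was chosen by these ratios.

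Named genes and regions followed a rule: listed genes with a promoter peak, and the first 5 regions of each set by pileup, −log10 q or mean ratio, except that only some of the listed genes are named and that 2 regions and their windows are not reported here. The windows for the lowest and highest mean ratio were added after the data were seen. The chromosome, gene lists and alternatives were chosen with earlier results of these data known. The alternatives were stricter −log10 q, other overlaps, tag minimums, centrings, bin sizes and peak classes. Pileup recovery, the count of unmatched peaks and a planted chromosome 18 ratio were tested on simulated data or altered copies of the WT list. These held no peak calling and no difference in depth between libraries. Python 3.11.15 was used with numpy 2.4.6, pandas 2.3.3, scipy 1.17.1, pysam 0.24.0 and matplotlib 3.10.9.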

Additional observations from a re-analysis of the deposited data

Results flagged for a closer look

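The number of chromosome 18 peaks moved in opposite directions with IFN-γ in the genotypes. It was 130 higher in WT-IFN-γ than in WT, and lower in sgFLI1-IFN-γ than in sgFLI1, where the change was −40. The whole lists moved likewise, by 7841 and −3280 peaks, which is 13.1% and −5.19%, against 13% and −4.82% on chromosome 18. With −log10 q of at least 5, at least 10, or at least 15 tags at the lowest tag density, the changes on chromosome 18 were 98, 76 and 22 in WT cells and −45, −53 and −20 in FLI1-KO cells. The median log2 ratio of IFN-γ over untreated peaks was 0.0515 in WT and −0.00692 in FLI1-KO cells. Neither difference between the genotypes was tested, since each group had 1 library.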

How the results depend on the processing

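No median log2 ratio changed its sign under the alternatives run. Counts and shares cannot be negative, so a sign says nothing about them. Of 80 recomputed values, 55 stayed within 1.5 times a count, the counting interval of a share or the interval of a median, and 25 moved. With −log10 q of at least 10 the lists held 584, 660, 465 and 412 chromosome 18 peaks, in the library order of the report, and the share of the list was 1.57% in WT and 1.23% in sgFLI1-IFN-γ. With at least 15 tags at the lowest tag density WT-IFN-γ held 710 peaks, and the share was 1.54% in WT and 1.54% in WT-IFN-γ. Peaks without a counterpart came to 42.1% in WT, 49.0% in WT-IFN-γ, and 30.5% and 27.2% in the FLI1-KO lists when an overlap of 50% of both peaks was required, against 31.9%, 38.3%, 35.8% and 30.5% over all chromosomes. At −log10 q of at least 5 and at least 10 they came to 13.5% and 12.3% in sgFLI1 (18.5% and 16.2% over all chromosomes) and 10.3% and 8.01% in sgFLI1-IFN-γ (13.2% and 10.4%), and with at least 15 tags to 32.5% in WT-IFN-γ (18.5%). The median log2 ratio was −0.29 untreated and −0.34 under IFN-γ with no minimum of tags, and −0.31 and −0.45 without centring. Under IFN-γ it was −0.34 within 3 kb of a TSS and −0.46 farther out, and the lowest bin was at −0.53 without centring. Centring within GC classes and the minimum of 15 tags for the ratio were added after the data were seen. The causes of these moves were not tested, beyond fewer peaks being counted under stricter limits. The FLI1-KO libraries had the lower tag density, and its part in the missing peaks of up to 30 tags was not tested. No paired analysis of replicates was possible because each group had 1 library and no replicate numbers are shared, and no library could be left out of a group. A fit of genotype with treatment as a block, which would leave 1 residual degree of freedom, was not run.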
